A study of Mus musculus with 2 samples.

Results

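In all, 10 genes of the MHC class I presentation machinery were followed in the mouse bone marrow stromal cell line M210B4, an established line, exposed to a CD84-activating antibody or to an IgG1 isotype antibody. The genes were taken by symbol: B2m, H2-M3, Mill2, Tap1, Tap2, Tapbp, Tapbpl, Psmb8, Psmb9 and Nlrc5. All 10 had at least 1 probe set annotated to that symbol alone, out of 22180 genes named in this way, and each gene was represented by its brightest probe set. The data were 1 Affymetrix Mouse Gene 2.0 ST array from anti-CD84 cells and 1 from IgG1 cells. Per the labels, 200000 cells of either culture had been kept for 24 h at 37 °C and 5% CO2 in RPMI with 2% serum, and neither a deletion nor a transgene is stated. CD84, a SLAM family receptor, is its own ligand between cells. Because each group was a single array, differences below are between these 2 arrays, have no replicate check, and are given without a test or an error.

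Class I molecules show peptides from inside the cell to CD8 T cells and are watched by NK cells. Proteasomes, in inflamed cells with the catalytic subunits Psmb8 and Psmb9 in place of the constitutive ones, cut proteins into peptides. The transporter made of Tap1 and Tap2 moves the peptides into the endoplasmic reticulum, where Tapbp (tapasin) and its relative Tapbpl help load and edit them on a heavy chain paired with B2m, the invariant light chain. H2-M3 is a heavy chain that presents N-formylated peptides, and Mill2 is a class I-like surface molecule encoded outside the MHC. Nlrc5 is a transcriptional co-activator of class I genes, and it acts through a promoter module whose parts include a CRE-like half-site and a CCAAT box.

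Promoter sequences of B2m, H2-M3, Tap1 and Mill2 are printed below, to place the class I module and interferon-type motifs beside the values. By the values as deposited, H2-M3 and Mill2 were past 1.5-fold between the arrays, while B2m and Tap1 lay within it. Psmb9, also past it, shares most of the Tap1 window and is not printed apart. Tapbpl, past it as well, had no window. RefSeq windows on GRCm38.p6, from 250 bases before to 50 bases after the annotated start, were at hand for 7 of the 10 genes (B2m, Tap1, Tapbp, Psmb8, Psmb9, H2-M3 and Mill2). Each is written 5′ to 3′ on the strand of its gene. Capitals mark every match, on either strand, to the motifs named after the sequences.
B2m, chr2:122147437-122147736, + strand: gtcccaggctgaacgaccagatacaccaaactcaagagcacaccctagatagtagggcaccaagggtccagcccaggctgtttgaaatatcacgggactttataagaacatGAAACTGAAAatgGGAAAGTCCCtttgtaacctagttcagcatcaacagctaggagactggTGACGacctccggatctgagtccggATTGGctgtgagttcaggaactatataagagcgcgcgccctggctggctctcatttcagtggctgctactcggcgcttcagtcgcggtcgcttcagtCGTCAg
H2-M3, chr17:37269984-37270283, + strand: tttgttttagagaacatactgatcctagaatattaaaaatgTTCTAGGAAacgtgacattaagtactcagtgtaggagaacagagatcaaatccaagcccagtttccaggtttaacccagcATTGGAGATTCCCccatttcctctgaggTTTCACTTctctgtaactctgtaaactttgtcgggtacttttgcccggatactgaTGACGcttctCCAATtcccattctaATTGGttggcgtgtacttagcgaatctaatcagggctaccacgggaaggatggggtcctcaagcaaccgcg
Tap1, chr17:34187306-34187605, + strand, whose first 275 bases also lie in the Psmb9 window, read there from the other strand: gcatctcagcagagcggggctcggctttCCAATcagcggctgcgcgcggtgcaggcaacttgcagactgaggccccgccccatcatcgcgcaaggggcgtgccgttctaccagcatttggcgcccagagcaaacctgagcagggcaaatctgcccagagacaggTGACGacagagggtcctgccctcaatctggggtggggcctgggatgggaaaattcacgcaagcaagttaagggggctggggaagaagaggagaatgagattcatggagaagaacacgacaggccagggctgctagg
Mill2, chr7:18839716-18840015, + strand: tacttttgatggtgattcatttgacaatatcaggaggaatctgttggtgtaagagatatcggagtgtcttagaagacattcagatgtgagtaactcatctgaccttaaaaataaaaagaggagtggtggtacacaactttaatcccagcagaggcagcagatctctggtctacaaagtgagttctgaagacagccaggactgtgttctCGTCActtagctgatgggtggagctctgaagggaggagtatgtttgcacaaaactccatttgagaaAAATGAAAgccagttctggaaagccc

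The motifs were the IRF core AANNGAAA, the interferon-stimulated response element (GAAA, any 2 bases, GAAA), the gamma-activated site TTCNNNGAA, the kappaB consensus, the CRE half-site TGACG and the CCAAT box. The response element contains an IRF core when it matches, so both names can cover the same letters. Positions count the annotated first base of the gene as 0 and give the first base of the match. The B2m window held a response element at -139 with its overlapping IRF core at -137, a kappaB match at -126, CRE half-sites at -78 and 44, and a CCAAT box at -53. The H2-M3 window held a gamma-activated site at -209, an IRF core at -101, a kappaB match at -126 that overlaps a CCAAT box at -129, a CRE half-site at -46 and further CCAAT boxes at -36 and -21. These 2 windows were alone among the 7 in holding a kappaB match, which 8.18% of 27025 gene windows of the same length hold.

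The starts of Psmb9 and Tap1 lie 225 bases apart on opposite strands, so these genes share their upstream stretch. It held 1 CRE half-site, at -86 from the Tap1 start, and 1 CCAAT box, at -222. No exact match to the IRF core, response element, gamma-activated site or kappaB consensus was found in the Tap1 or the Psmb9 window. Only exact matches inside the windows were sought, so a variant form or a more distant element would be missed. The Mill2 window held an IRF core after the start, at 24, and a CRE half-site at -42. Over the 7 windows, 5 held a CRE half-site and 5 a CCAAT box, but the Tap1 and Psmb9 windows hold the same pair of sites. With that shared stretch counted once, 4 of 6 windows held a CRE half-site, against 21.0% of all windows. Taken by itself, the CCAAT box was also in 4 of 6, against 37.9%. These counts take no account of the order or spacing of the 2 motifs and so are not counts of the class I module. Mill2 held the half-site without a CCAAT box, and Tapbp the CCAAT box without a half-site. An IRF core was in 3 of 7 and in 24.2% of all windows, a gamma-activated site in 2 of 7 and in 8.47%, and a response element in 1 of 7 and in 3.49%. A match describes letters only and is not a binding site.

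**Figure D1:**
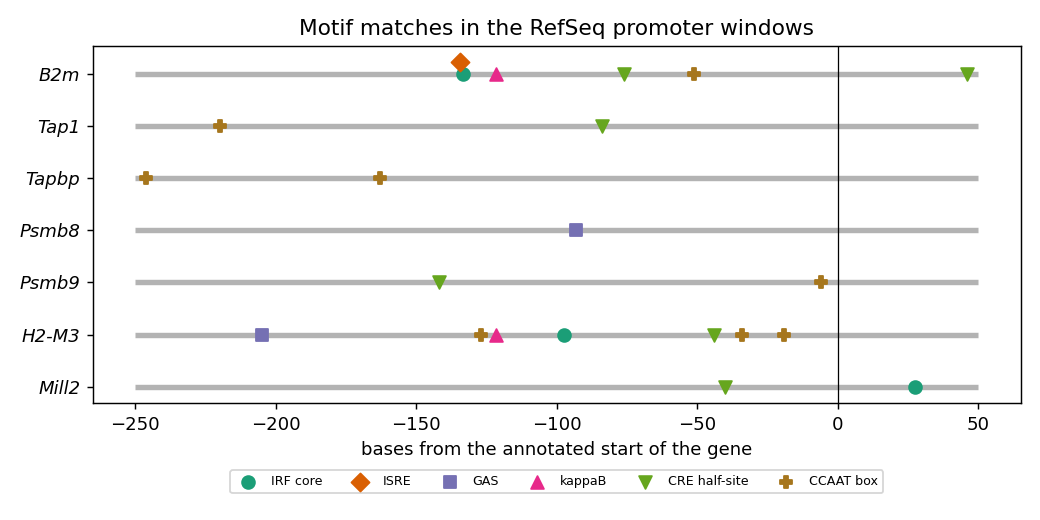
Motif matches in the promoter windows of the 7 genes that have one, by distance in bases from the annotated gene start, with 1 symbol for each match at its centre. B2m and H2-M3 hold a kappaB match, and B2m holds the sole exact match to the interferon-stimulated response element.

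The arrays were compared at a detection level of 4.84 on the log2 scale, the 95th percentile of olfactory and vomeronasal receptor genes, which serve here as genes without expression. It sets a working limit and makes no call for any one probe set. A total of 13284 genes exceeded it on either array, and of these 1427 were higher after anti-CD84 by 1.5-fold or more and 850 were lower by as much, and with the differences centred on their median of 0.09 these counts were 1024 and 1128. With values under the detection level raised to it they were 1216 and 548 (13.3% of detected genes), and among genes above it on both arrays 1125 and 457 (13.5%). Of the stromal markers 9 of 11 were above the level, 8 of them on both arrays, where 13284 of all 22180 genes were above it. Lepr and Lum were not detected, and Thy1 was above the level after IgG1 alone (4.39 after anti-CD84 and 4.95 after IgG1). Of the leukocyte and T cell markers 0 of 5 were above it, of B cell markers 0 of 4 measured, of macrophage, monocyte and dendritic cell markers 3 of 7, of NK cell markers 1 of 4 and of endothelial markers 3 of 5. Linear levels were summed over all measured markers of a list, detected or not. The sum of the leukocyte and T cell markers was 79.8 after anti-CD84 and 80.8 after IgG1. That of the macrophage list was 188 and 199.7, and that of the endothelial list 116 and 157. With no leukocyte or T cell marker detected, their sum is background. Undetected markers also enter the macrophage and endothelial sums. The summed level of the stromal list was 20621.8 after anti-CD84 and 17040.3 after IgG1. Of its 9 detected genes, 3 were at least 1.5-fold higher (Cxcl12, Pdgfra and Dcn) and 0 lower. Of the 3 detected endothelial markers 2 were at least 1.5-fold lower (Pecam1 and Cdh5). Of the 3 detected genes of the macrophage list 1 was higher by as much (Csf1r). These counts stand beside 10.7% of all detected genes higher and 6.4% lower by 1.5-fold. Pecam1, Cdh5 and Csf1r each had an array below the detection level. With values raised to it, Cdh5 alone of them passed, at least 1.65-fold lower. The part of any of these lists in the results was not tested. Cd84 did not reach the detection level, at 4.15 after anti-CD84 and 3.82 after IgG1.

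All 10 presentation genes were above the detection level after anti-CD84, and 9 of them after IgG1. Mill2, Tapbpl and H2-M3 were at least 1.5-fold higher after anti-CD84, Psmb9 was at least 1.5-fold lower, and the other 6 lay within 1.5-fold. The same 3 higher and 1 lower counts held with values raised to the detection level. Past that fold in either direction were 17.1% of all detected genes by measured values, 10.7% upward and 6.4% downward, and 13.3% with values raised to the level, 9.15% upward and 4.13% downward. Of the 9 presentation genes above the level on both arrays 2 were higher and 1 lower by 1.5-fold, against 9.57% and 3.89% of all such genes. At 2-fold Mill2 was the single gene of the 10 to pass, against 3.41% of detected genes. The 10 genes had a median log2 difference of 0.30, against 0.09 for all detected genes, but that median was 0.18 without Mill2 and 0.050 with the dimmest probe set of each gene. The differences ran from -0.81 for Psmb9 to 0.87 for Tapbpl among the 9 genes detected on both arrays, and Mill2 lay at least 1.63 higher. The spread depends on level: 25.5% of detected genes with a mean log2 value under 6 were 1.5-fold apart, 18.3% of those at 6 to 8, 8.74% at 8 to 10 and 4.33% over 10. Of the 10 genes, B2m lies in the highest of these bands, Mill2 and Nlrc5 in the lowest and the other 7 at 6 to 8.

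**Figure D2:**
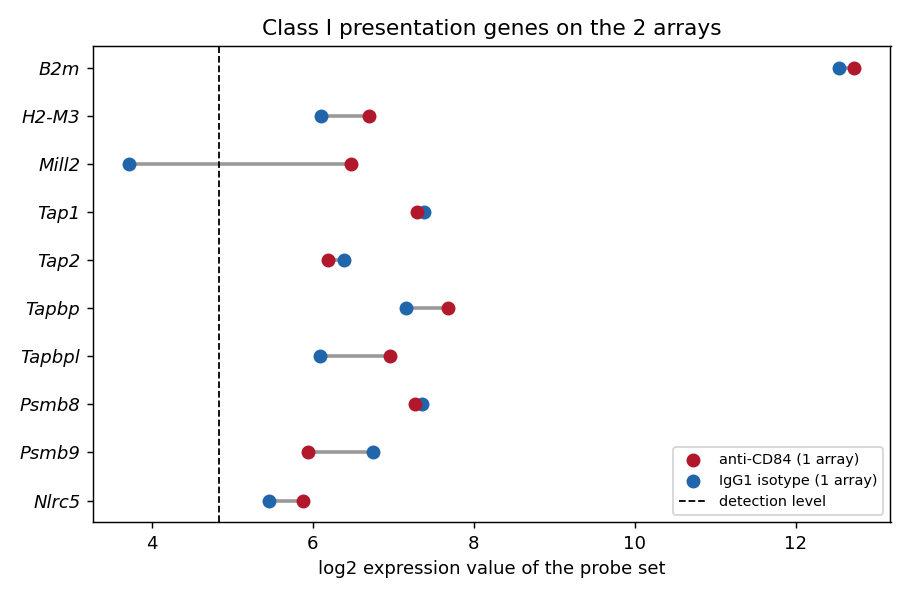
Log2 values of the 10 genes on the anti-CD84 array and the IgG1 array, 1 point per array, with the detection level of 4.84 as a dashed line. Mill2 crosses the line, and Tap1 and Psmb8 lie within 0.09 log2 between the arrays.

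B2m, the light chain that every classical class I molecule needs at the cell surface, had a log2 value of 12.73 after anti-CD84 and 12.54 after IgG1. The higher value was on the anti-CD84 array, by 0.18 log2 or 1.14-fold. Differences at least as far upward were found for 36.5% of the 832 detected genes with a mean value over 10, so B2m lay well within the spread of genes at its level.

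H2-M3 had a log2 value of 6.70 after anti-CD84 and 6.10 after IgG1. That is 1.51-fold higher, just past the 1.5-fold line, and the difference of 0.59 became 0.51 when centred, 0.52 with a level-dependent curve removed and 0.48 with the arrays quantile normalized, all inside the line. As far upward were 13.2% of the 4621 detected genes at 6 to 8. In bulk RNA, more cells with a transcript and more RNA per cell cannot be told apart, which holds for this and for each difference here.

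Mill2 had a log2 value of 6.47 after anti-CD84 and, at 3.72, lay below the detection level after IgG1. It stood at least 3.10-fold higher, counted from the detection level, and allowing for no noise in the brighter value. On the log2 scale that is a difference of at least 1.63. The measured difference of 2.75 rests in part on an IgG1 value below the level, which has no order among undetected genes. A single probe set names Mill2, so no second probe set could be set beside it.

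Tap1 and Tap2, which together form the peptide transporter, differed little. Tap1 had a log2 value of 7.30 after anti-CD84 and 7.38 after IgG1, a difference of -0.09. Tap2 had 6.19 after anti-CD84 and 6.39 after IgG1, a difference of -0.20. Both chains of the transporter were slightly lower after anti-CD84, by 1.06-fold and 1.15-fold, and 29.6% and 20.8% of the detected genes at 6 to 8 were at least as far downward.

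Tapbpl, which edits peptides on class I molecules apart from the loading complex, had a log2 value of 6.96 after anti-CD84 and 6.09 after IgG1. It was 1.83-fold higher, and 4.05% of detected genes in its level band were as far upward. Tapbp, the tapasin that bridges the transporter and the heavy chain, had 7.68 after anti-CD84 and 7.16 after IgG1 in its brightest probe set, 1.43-fold higher and just inside the 1.5-fold line. Its probe sets disagreed. A second one, annotated to Tapbp alone, had 6.12 after anti-CD84 and 6.32 after IgG1, a difference of -0.20, so the direction for Tapbp depended on the probe set. Another, annotated to Tapbp and Zbtb22 together and not used for gene values, had 6.09 after anti-CD84 and 5.63 after IgG1. Each of the other 9 genes was named by 1 probe set.

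Psmb9, the induced subunit with caspase-like position in the proteasome core, had a log2 value of 5.94 after anti-CD84 and 6.75 after IgG1. It was 1.75-fold lower, and 1.62% of the detected genes in its band were as far downward. Psmb8, the induced chymotrypsin-like subunit, had 7.27 after anti-CD84 and 7.36 after IgG1, a difference of -0.08 and inside the spread of its band. Both induced subunits were lower after anti-CD84, with Psmb9 past 1.5-fold and Psmb8 within it.

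Nlrc5, the class I co-activator, had a log2 value of 5.88 after anti-CD84 and 5.46 after IgG1. It was 1.34-fold higher, within 1.5-fold, and 19.2% of detected genes in its band were as far upward.

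**Figure D3:**
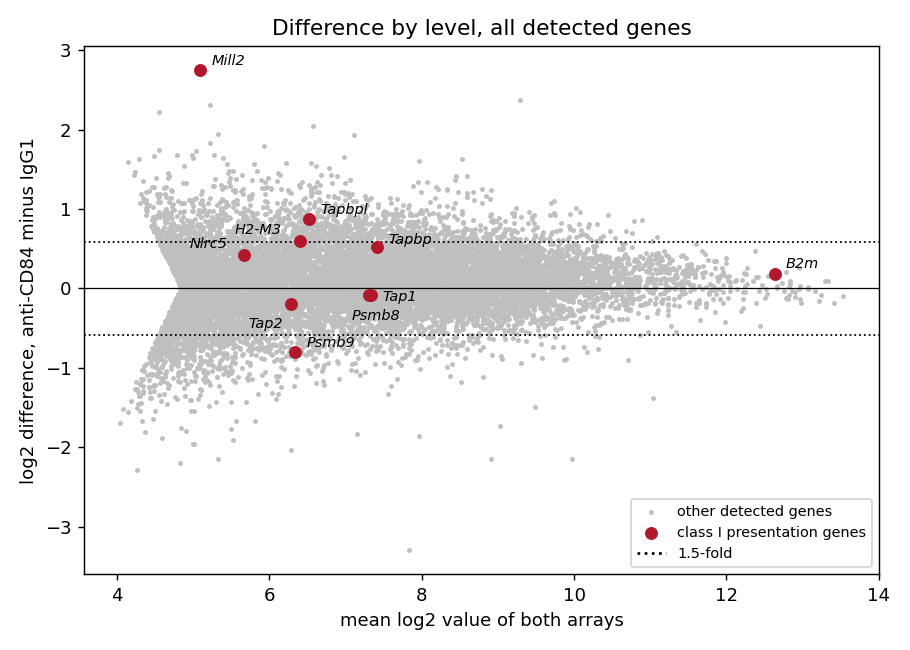
Log2 difference, anti-CD84 minus IgG1, against the mean log2 value of both arrays for 13284 detected genes (grey), with the 10 presentation genes in red and dotted lines at 1.5-fold. Mill2, drawn at its measured difference with an IgG1 value below the detection level, lies with Tapbpl and H2-M3 above the upper line, Psmb9 lies below the lower line, and B2m sits among bright genes with a narrow spread.

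The induced catalytic subunits were also set against the constitutive subunits they replace, a comparison chosen after the values were seen. Psmb10, the remaining induced subunit, had a log2 value of 7.51 after anti-CD84 and 8.002 after IgG1, a difference of -0.49. Its constitutive counterpart Psmb7 had 9.14 after anti-CD84 and 9.04 after IgG1, a difference of 0.09 whose sign changed with the scaling of the arrays. Psmb6, the counterpart of Psmb9, had 8.86 after anti-CD84 and 8.72 after IgG1, a difference of 0.14. Psmb5, the counterpart of Psmb8, had 9.01 after anti-CD84 and 9.07 after IgG1, a difference of -0.06. Relative to its counterpart, Psmb9 was thus lower after anti-CD84 by 1.93-fold and Psmb10 by 1.499-fold, whereas Psmb8 and Psmb5 had differences that were 0.03 log2 apart. Lower values were not particular to induced subunits. Among structural subunits of the core, Psmb1 differed by -0.80, Psmb3 by -0.54 and Psma1 by -0.50. Of the 9 detected structural subunits 8 were lower and 1 was higher.

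Psmb9, Tap1, Psmb8 and Tap2 follow each other with no other protein-coding gene between them in the RefSeq annotation of the class II region of the MHC. These 4 adjoining genes had values lower after anti-CD84, with a median difference of -0.14, and the other 6 presentation genes had values higher, with a median of 0.56. The count of 6 rests on the brightest Tapbp probe set, since the other one had a difference of -0.20. This grouping by position was seen in the values and then described, so it has no independent support. Of the 6 protein-coding genes on either side, 6 of 12 were detected, and these 6 were lower after anti-CD84. Of all detected genes 40.9% were lower by any amount and 59.1% higher, shares that differences centred on the median make equal. H2-Ob, a class II accessory chain, had the largest of those differences, with 4.85 after anti-CD84, barely above the detection level, and 5.59 after IgG1 (1.67-fold lower). Col11a2 differed by -0.37, the chromatin reader Brd2 by -0.26, the class II chain H2-Ab1 by -0.25, H2-DMa by -0.20 and H2-Eb1 by -0.19. H2-Ob, Col11a2 and H2-Ab1 had mean values under 6. Detected genes at that level had a median difference of -0.01, so about as many were lower as higher. Undetected neighbours went both ways, with H2-DMb2 at 0.29 and H2-Aa at -0.20. All 10 detected genes of the stretch were lower under each of 4 scalings, but 8 of the 10 lay within 1.5-fold. Agreement across the scalings adds no support. They include the values as reported, and centring lowers every difference. Curve removal and quantile normalization moved these genes little or further down. Genes on the same 2 arrays share any difference between the cultures or the hybridizations, and the part of either was not tested.

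**Figure D4:**
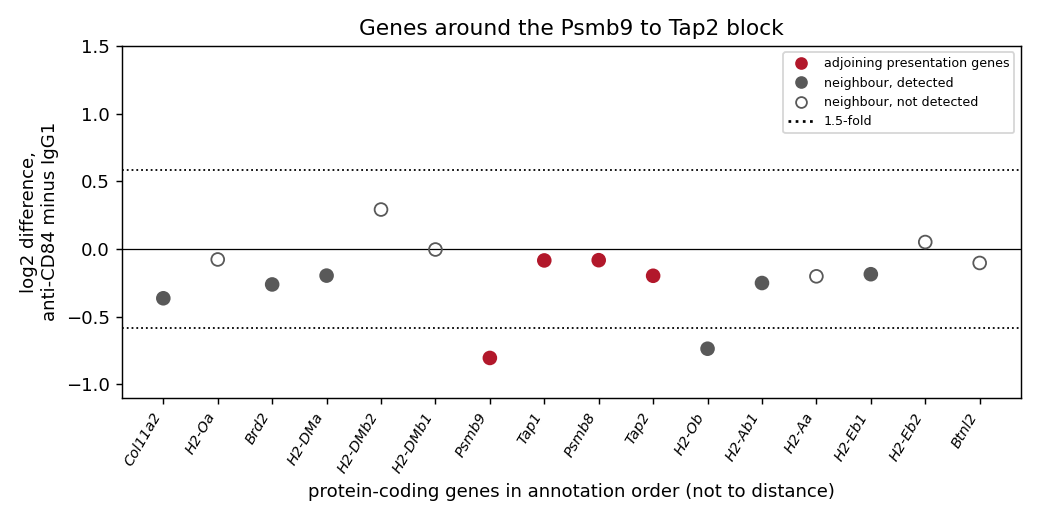
Log2 difference, anti-CD84 minus IgG1, for 16 protein-coding genes in annotation order around the 4 adjoining presentation genes (red), with open symbols for genes below the detection level on both arrays and dotted lines at 1.5-fold. Each filled symbol lies below 0, and Psmb9 and H2-Ob lie past the lower line.

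Other genes of the pathway were described from 7 lists. Among class I heavy chains 13 of 23 had a probe set of their own and 9 were detected (median 0.14). By measured values 1 was at least 1.5-fold higher and 1 lower, but each had an array below the detection level, and with values raised to it 0 of 9 passed in either direction. The classical chain H2-K1 had a log2 value of 7.93 after anti-CD84 and 8.15 after IgG1, a difference of -0.22. H2-Q10 differed by 0.46 and H2-T23, the ligand of NK cell CD94 receptors, by 0.15. H2-T10 had 5.10 after anti-CD84 and lay below the detection level, at 4.43, after IgG1, at least 1.20-fold higher. H2-M10.1 was below the level after anti-CD84 and on it after IgG1, at 3.86 and 4.84, so its distance has little meaning. Heavy chains of this family share sequence, and probes can read more than one of them.

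Class I-like molecules had a median of 0.51 over 5 detected genes of 11 measured, with 1 at least 1.5-fold higher and 0 lower. Mr1, which presents vitamin B metabolites to MAIT cells, had a log2 value of 9.46 after anti-CD84 and 8.34 after IgG1. It was 2.18-fold higher, and 0.559% of the detected genes at 8 to 10 were as far upward. Hfe, which takes part in iron sensing, had a difference of 0.57, Ulbp1, a ligand of the NK receptor NKG2D, 0.51, and Fcgrt, the neonatal Fc receptor, 0.50. Procr, the protein C receptor, differed by -0.36. Of the detected genes on this list, 4 of 5 were higher after anti-CD84, against 59.1% of all detected genes. Mill1, the relative of Mill2, did not reach the detection level on either array, at 4.27 after anti-CD84 and 4.01 after IgG1.

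Loading chaperones and peptide-trimming enzymes were close to equal, with 0 of 13 past 1.5-fold. Their median of 0.04 turned negative, to between -0.05 and -0.03, under the 3 rescalings. All of them but Erap1 and Thop1 had a mean value over 8. At that level few detected genes were past 1.5-fold, 8.74% at 8 to 10 and 4.33% over 10. The lectin chaperones Canx and Calr differed by 0.04 and -0.07, the sign of Canx depending on the scaling, and the disulphide isomerase Pdia3, a part of the loading complex, by -0.18. In the list of proteasome catalytic subunits and activators 0 of 10 detected genes passed (median 0.11), with the activator subunit Psme4 at 0.28. Among structural subunits of the proteasome core 1 of 9 was past 1.5-fold, downward, and 8 of 9 values were lower after anti-CD84, against 40.9% of all detected genes (median -0.11, and between -0.20 and -0.19 when rescaled). Psmb1 had a log2 value of 9.77 after anti-CD84 and 10.57 after IgG1, 1.74-fold lower, a distance reached downward by 0.361% of detected genes over 10. Psma3 and Psma7 differed by -0.11 and -0.03.

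Regulators of class I transcription had 2 of 19 genes at least 1.5-fold higher and 0 lower (median 0.20). Nfya, a subunit of the factor that binds CCAAT boxes, had 8.96 after anti-CD84 and 8.12 after IgG1, 1.78-fold higher. Stat2, of type I interferon signalling, had 8.96 after anti-CD84 and 8.14 after IgG1, 1.77-fold higher. Among the brightest, Rela differed by -0.01, the kinase Jak1 by 0.28 and the receptor chain Ifngr1 by 0.26. The class II list had 1 of 5 detected genes past 1.5-fold, H2-Ob, and 4 of 5 lower (median -0.20). Those 4 genes are already counted among the neighbours of the Psmb9 to Tap2 block, so the list is no separate comparison. Its co-activator Ciita, a relative of Nlrc5, was the exception, with a difference of 0.21. For each list the share past 1.5-fold is to be read against 17.1% of all detected genes by measured values, and against the level of its genes. By mean value that share was 25.5% under 6, 18.3% at 6 to 8, 8.74% at 8 to 10 and 4.33% over 10. A list of bright genes with few past 1.5-fold is therefore not unusual.

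**Figure D5:**
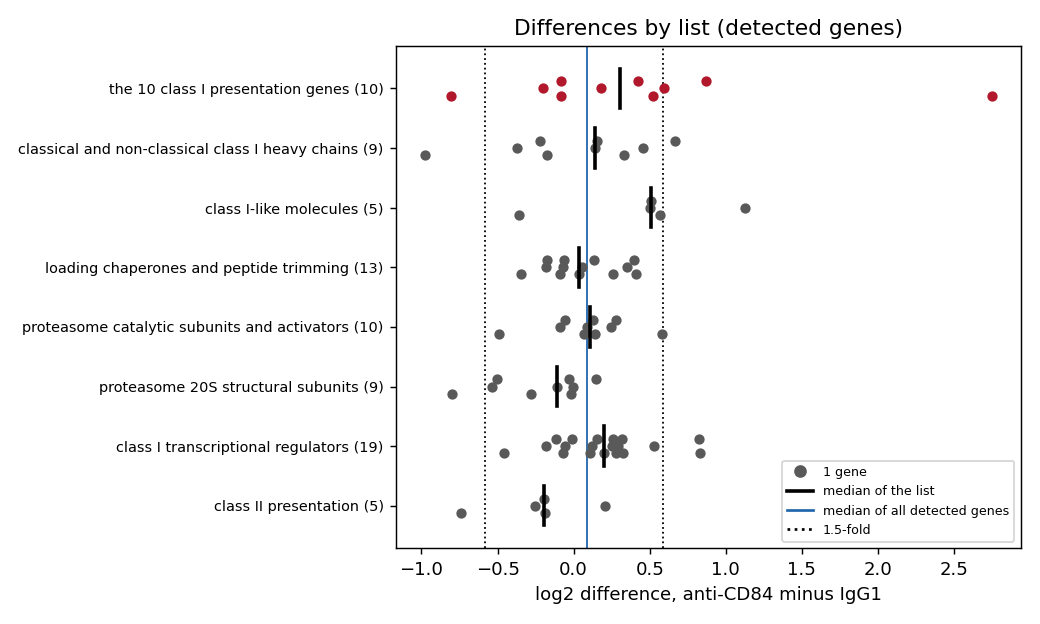
Log2 difference, anti-CD84 minus IgG1, for each detected gene of the 10 presentation genes (red) and of the 7 lists (grey, number of detected genes in brackets), with list medians as black bars, the median of all detected genes as a blue line and dotted lines at 1.5-fold. The list of class I-like molecules has the highest median, 0.51, and the class II list the lowest, -0.20. All points are measured differences, including those of Mill2, H2-T10, H2-T24 and H2-M10.1, which had an array below the detection level.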

How the data were processed

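Values as deposited are log2 expression, with 41345 probe sets on either array. The log2 scale was read from their range, 1.82 to 13.8. Per the submitters' processing notes, the authors used RMA and Partek; for versions, settings, genome build and the set of arrays normalized together, the sources used here say nothing. RMA compresses differences of dim probe sets, so low folds can be understated. Dim genes also scattered most between these arrays, so their folds can be overstated as well. With a mean value under 6, 25.5% of detected genes were 1.5-fold apart, against 4.33% of those over 10. Medians were 4.87 (anti-CD84) and 4.88 (IgG1), and the number of arrays limits the precision.

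GEO's platform annotation gave 1 symbol to 23521 probe sets, several to 1814 and none to 16010. Gene IDs of all 10 genes were found in RefSeq (GRCm38.p6), used for names, gene order and promoters. The detection level came from 1394 receptor genes. A fold printed for a gene with 1 array below it was counted from it and written "at least", while counts of genes past 1.5-fold and list medians use measured values unless said otherwise. A difference is anti-CD84 minus IgG1.

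The 10 genes, the 7 lists and the marker lists were chosen with earlier results of these data known. Named genes were the 10, list genes past 1.5-fold, and the 3 brightest detected genes of a list. Other list genes, the neighbouring genes and the subunit pairs were named after their values were seen. There were 8 planned and 2 added alternatives. The counting step was run on simulated data with little noise and planted differences well past 1.5-fold. That checks the counting alone and says nothing about calls near 1.5-fold on these arrays. The software was limma 3.58.1 (loess, span 0.4) in R 4.3.3, and matplotlib 3.10.9, pandas 2.3.3 and numpy 2.4.6 in Python 3.11.15.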

Additional observations from a re-analysis of the deposited data

How the results depend on the processing

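The 10 genes kept the direction of their difference under centring on the median, removal of a loess curve and quantile normalization. Centring lowered every difference by 0.09, so the negative ones could not change sign. The level filters and the floor could not change a direction at all. No level filter, the stricter level (6.88) and both arrays detected only choose which genes are counted. A floor at the detection level cannot reverse a difference. The mean of probe sets could alter Tapbp alone, which stayed higher (0.16). With its dimmest probe set, an alternative chosen after seeing the data, Tapbp gave -0.20. H2-M3 was inside 1.5-fold at 0.51 (centred), 0.52 (loess) and 0.48 (quantile). With the stricter level 5 genes remained, of which 1 was at least 1.5-fold higher and 0 lower, with a median of 0.18. The median was also 0.18 with both arrays above the detection level and without Mill2 (chosen after seeing the data), 0.17 with the mean of probe sets and 0.050 with the dimmest probe set. The fall with the stricter level follows from fewer genes counted, and with either probe set rule from the Tapbp probe sets. Of all detected genes, 1146 were 1.5-fold higher and 963 lower with the loess curve removed, and 1089 and 1030 with quantile normalization. With values floored at the detection level they were 1216 and 548, and with both arrays above it 1125 and 457, so the lower count depends on genes with an array below that level. No paired analysis was possible because each group has 1 array, and for the same reason no replicate could be left out. Probe sets near the detection level have little signal over background, which limits Mill2 and Nlrc5 most.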

Other observations

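In all, 6 probe sets were annotated to several class I heavy chain genes and entered no comparison above. The probe set shared by H2-T22 and H2-T9, chains of the non-classical T region, had a log2 value of 9.26 after anti-CD84 and 9.09 after IgG1. Of 2 probe sets shared by H2-Q7, H2-Q8 and H2-Q9, which belong to the Qa-2 group, 1 had 7.64 after anti-CD84 and 7.48 after IgG1, and the other had 5.20 after anti-CD84 and 5.75 after IgG1. These 2 probe sets of the same genes thus differed in opposite directions, by 0.17 and -0.55. The probe set shared by the classical chain H2-D1 and H2-Q2 did not reach the detection level, at 4.50 after anti-CD84 and 4.81 after IgG1, and those shared by H2-Q6 and H2-Q8 and by H2-T3 and H2-T18 were below it as well.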
